A study of Homo sapiens with 18 samples.

Results

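The Kruppel-like factors measured here were the 9 family members *KLF2*, *KLF3*, *KLF4*, *KLF5*, *KLF6*, *KLF9*, *KLF10*, *KLF11* and *KLF13*. They were found by the gene name of the array's own annotation among spots that were not controls, which gave 9 of 36204 gene names, 13 of 50599 probes and 22 of 58717 spots. All 9 were read on all 18 arrays, and the probe used for each was well above background on every one of them.

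The cells were HT29, a line from a human colorectal adenocarcinoma, and its subline HTOXAR3, in which resistance to oxaliplatin (OXA) was selected by continuous exposure to rising doses of the drug, so the resistant phenotype is represented by 1 line. The 6 groups of 3 arrays each were untreated HT29, HT29 with 10 µM OXA, HT29 with 10 µM OXA plus 10 µM Curcumin, untreated HTOXAR3, HTOXAR3 with 30 µM OXA, and HTOXAR3 with 30 µM OXA plus 10 µM Curcumin. Treatment lasted 24 h, and the study describes the 3 samples of a group as biological replicates. The control samples are labelled untreated, while the study's results mention vehicle treatment and its methods no treatment. The dose of OXA differed between the lines, so cell line and dose cannot be told apart in any comparison of their responses, and Curcumin without OXA was not analysed here.

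Kruppel-like factors are transcription factors that bind GC boxes and CACCC elements through a highly conserved run of C2H2 zinc fingers at their carboxyl end. Their amino-terminal parts differ and recruit different partners. *KLF2*, *KLF4*, *KLF5* and *KLF6* work largely with histone acetyltransferases, *KLF3* binds the CtBP corepressors, and *KLF9*, *KLF10*, *KLF11* and *KLF13* bind the *SIN3A* protein, which brings histone deacetylases. In the intestine *KLF5* is known from dividing crypt cells and *KLF4* from differentiated cells that have left the cycle, where it supports transcription of the cell cycle inhibitor *CDKN1A*.

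Sequences are shown for the members whose levels moved most. The *KLF4* reading came from a 60-base probe at chr9:110248049-110248108 of GRCh37, transcript strand minus. One reading frame of it holds the spacing of a C2H2 finger, a cysteine, 2 residues, a cysteine, 12 residues and a histidine, and the codons of these are in capitals.
KLF4 probe: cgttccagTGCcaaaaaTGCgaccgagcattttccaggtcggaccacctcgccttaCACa
The 250 bases before the RefSeq start (GRCh38.p14) are given for *KLF2* (chr19:16324576-16324825, plus strand), *KLF4* (chr9:107489770-107490019, minus strand), *KLF9* (chr9:70414658-70414907, minus strand) and *KLF13* (chr15:31326585-31326834, plus strand), with every match of 5 motifs on either strand in capitals. These motifs were the GC box GGGCGG, the CACCC element CACCC, the cyclic AMP response element TGACGTCA, the AP-1 site TGACTCA and the E-box CACGTG.
KLF2: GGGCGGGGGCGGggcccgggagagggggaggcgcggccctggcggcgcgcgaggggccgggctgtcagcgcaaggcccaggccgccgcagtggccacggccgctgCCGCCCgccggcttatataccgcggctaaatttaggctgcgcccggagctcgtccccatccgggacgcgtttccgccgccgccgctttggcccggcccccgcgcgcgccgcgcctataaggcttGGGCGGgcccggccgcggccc
KLF4: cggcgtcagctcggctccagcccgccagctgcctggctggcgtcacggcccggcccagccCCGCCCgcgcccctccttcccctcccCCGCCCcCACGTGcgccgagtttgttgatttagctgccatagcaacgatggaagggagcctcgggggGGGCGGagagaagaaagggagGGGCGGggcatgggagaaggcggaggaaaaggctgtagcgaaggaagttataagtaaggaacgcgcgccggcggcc
KLF9: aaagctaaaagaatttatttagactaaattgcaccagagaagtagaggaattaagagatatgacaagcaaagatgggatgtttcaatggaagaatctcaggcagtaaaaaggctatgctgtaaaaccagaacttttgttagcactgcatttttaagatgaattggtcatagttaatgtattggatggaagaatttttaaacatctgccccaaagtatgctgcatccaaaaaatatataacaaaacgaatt
KLF13: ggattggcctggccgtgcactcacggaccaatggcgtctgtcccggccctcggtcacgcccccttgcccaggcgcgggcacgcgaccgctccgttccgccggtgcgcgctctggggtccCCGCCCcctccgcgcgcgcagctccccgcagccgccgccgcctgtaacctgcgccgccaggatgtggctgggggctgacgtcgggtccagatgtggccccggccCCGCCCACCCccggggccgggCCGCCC
The window of *KLF2* held 4 GC boxes and no other match. That of *KLF4* held 4 GC boxes and 1 E-box, and that of *KLF13* held 3 GC boxes and 1 CACCC element, of which 1 GC box and the CACCC element shared 1 base. None of the 5 motifs occurred in the window of *KLF9*. Of the 7 members in the RefSeq table (*KLF3* and *KLF10* were not matched), 6 had a GC box, against 42.6% of 35116 promoters of the same length, and 3 had a CACCC element, against 54.7%. The cyclic AMP response element occurred in 1 of 7 (*KLF11*, against 1.65% of promoters), the E-box in 2 (*KLF4* and *KLF6*, against 6.34%) and the AP-1 site in 0 (against 4.2%). These are matches of letters and no measure of binding.

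The share of spots that stood well above background ran from 52.4% to 63.6% among the arrays and was lowest in untreated HTOXAR3 replicate 2. The lowest correlation between arrays of 1 group was 0.985. Of 12 colon epithelium markers, 9 were well above background on all 18 arrays, among them *EPCAM* and *KRT20*, while *CDX2* was so on 10, *GPA33* on 9 and *CDH17* on 5. Presence did not mean equal levels. Without treatment, the resistant line had 3 of the 12 called lower and 0 higher, by the rule given below. Among the 3 were *LGALS4* (-2.08 on the log2 scale) and *VIL1* (-1.61). Of 11 markers of leukocytes, endothelium and fibroblasts, 10 were on the array, 4 were well above background on all 18 arrays and *COL1A2* and *COL3A1* on none. The summed linear intensity of these markers was 469 to 536 in the untreated groups, 616 to 682 with OXA and 528 to 602 with OXA plus Curcumin, against 738727 to 882367 for the epithelial list, and their part in the results below was not tested. The epithelial sum did not reflect the lower *LGALS4* and *VIL1*. It was 738727 to 768611 in untreated HT29 and 763018 to 784199 in untreated HTOXAR3. Values below are log2 intensities after quantile normalization, so each change is relative to the other transcripts of the array. In these bulk samples, fewer cells of a type and less RNA per cell cannot be told apart.

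The members were called in patterns that differed from gene to gene, and the share of all names called in each comparison is given below. *KLF4* was higher after both treatments in both lines, and *KLF2* after OXA plus Curcumin in both lines and after OXA in HTOXAR3. *KLF9* was higher where Curcumin had been added, and *KLF13* was lower in HTOXAR3 and lower again after OXA plus Curcumin. A gene was called when its Benjamini-Yekutieli (BY) adjusted p over all gene names was below 0.05 and its change exceeded 1.2-fold. *KLF10* was called in 1 comparison, *KLF6* in 1, *KLF3* in 2 and *KLF11* in 2, while *KLF5* was called in none of the 10.

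**Figure D1:**
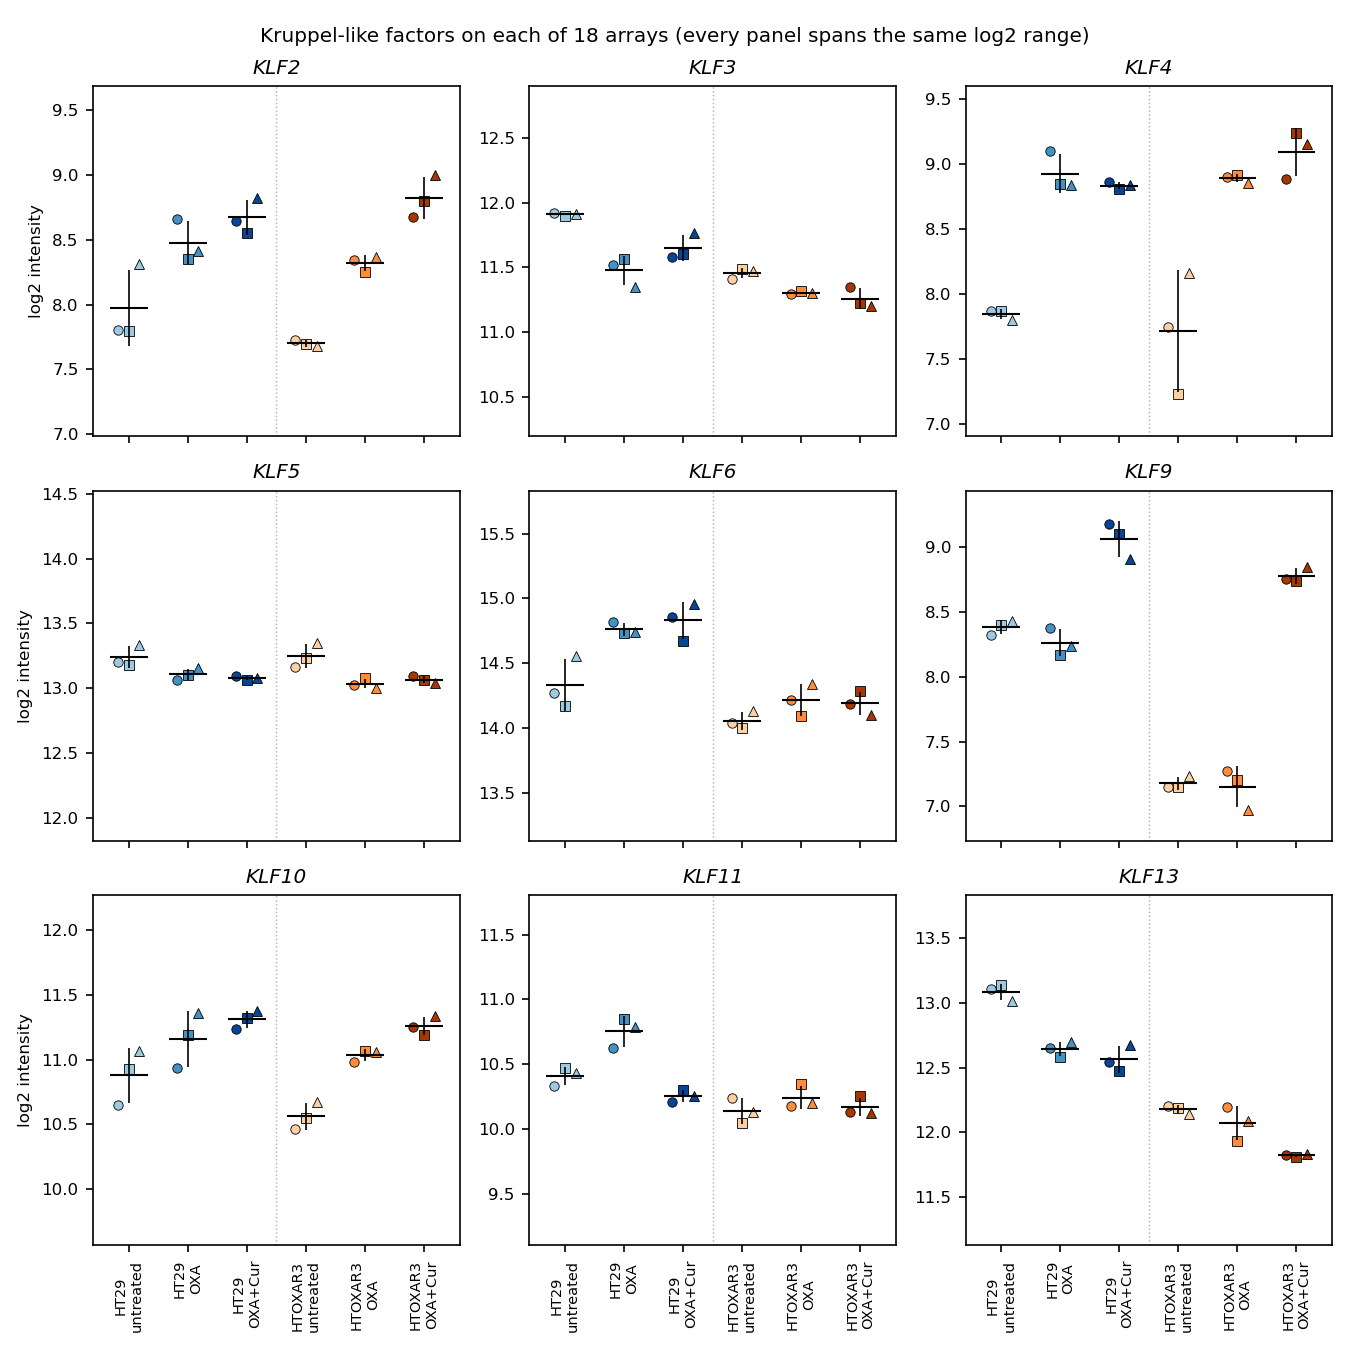
Each panel shows 1 Kruppel-like factor, with log2 intensity on the vertical axis and the 6 groups along the horizontal axis. Points are arrays (circle, square and triangle for replicates 1, 2 and 3), horizontal bars are means and vertical bars are 1 SD (n = 3). *KLF9* rises from 7.15 with OXA to 8.78 with OXA plus Curcumin in HTOXAR3, and *KLF5* stays between 13.04 and 13.25 in all group means.

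The basal comparison asks what distinguishes the resistant subline before treatment. *KLF9*, *KLF13* and *KLF3* were lower in untreated HTOXAR3 and 0 of 9 were higher, against 11.5% of all gene names called (6.26% higher and 5.28% lower) and 21.5% of the 17463 names well above background on all arrays. The median difference over the 9 members was -0.27, against -0.03 over all names. After OXA alone, which addresses the response of each line to the drug, 4 of 9 members were called in HT29, 2 higher and 2 lower (background 15.9%, with 8.33% higher and 7.62% lower, and 31% of the names well above background on all arrays). In HTOXAR3 2 of 9 were called, both higher (background 10.2%, with 5.31% higher and 4.94% lower, and 20% of the names well above background). After OXA plus Curcumin, 5 of 9 were called in each line, 4 higher and 1 lower. The background was 18.6% in HT29 (9.56% higher and 9.02% lower) and 17.5% in HTOXAR3 (8.82% higher and 8.64% lower), and 35.6% and 33.4% of the names well above background on all arrays. Curcumin added to OXA left 2 of 9 called in HT29 (1 higher and 1 lower, background 5.53%, with 3.14% higher and 2.39% lower) and 1 of 9 in HTOXAR3 (higher, background 8.83%, with 4.43% higher and 4.41% lower). Of the names well above background on all arrays, 10.9% and 17.3% were called in these comparisons. Any 2 of the 3 treatment comparisons within a line share the arrays of 1 group. These are the untreated arrays for OXA and the combination, the OXA arrays for OXA and Curcumin added, and the OXA plus Curcumin arrays for the combination and Curcumin added.

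Whether the lines responded differently was tested with an interaction term. It called 0 of 9 members for OXA, where the background of names called was 1.01% (0.608% with a positive and 0.398% with a negative term) and 1.96% among names well above background on all arrays. It called *KLF9* alone for OXA plus Curcumin (background 0.856%, with 0.32% positive and 0.536% negative), and 0 of 9 for Curcumin added to OXA, where the background was 0.135% (0.0276% positive and 0.108% negative). An unadjusted p under 0.05 in limma was reached by 3 of 9 members in each of these 3 tests, and by 4944, 5202 and 3526 of the 36203 names tested there. For the other 8 members a difference between the lines in the response was therefore not called, which does not show that the lines responded alike.

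**Figure D2:**
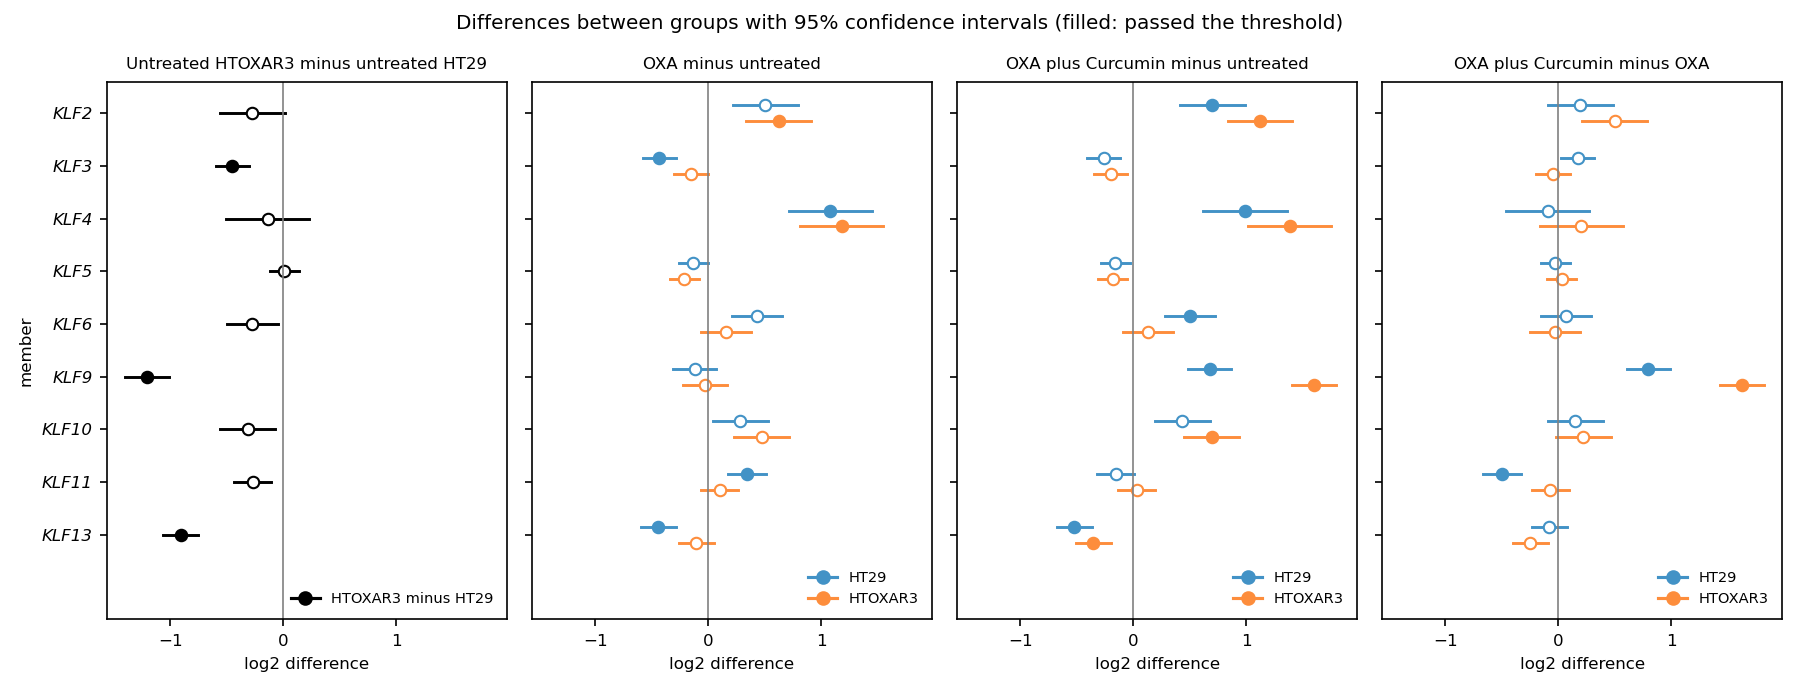
The 4 panels show the log2 difference of each member on the horizontal axis with its 95% confidence interval, from left to right for the basal comparison, OXA, OXA plus Curcumin and Curcumin added to OXA, in HT29 (blue) and HTOXAR3 (orange). Filled points were called, and the filled points farthest to the right belong to *KLF9* in HTOXAR3, at 1.60 and 1.63.

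*KLF4*, the factor of differentiated intestinal cells, was higher after either treatment in both lines, by ratios between 1.98 and 2.61. In untreated HT29 it read 7.87, 7.87 and 7.80, with OXA 9.10, 8.84 and 8.84, and with OXA plus Curcumin 8.86, 8.81 and 8.84. All 6 treated HT29 arrays lay above all 3 untreated ones, and the treated groups overlapped each other. In HTOXAR3 the values were 7.74, 7.23 and 8.16 untreated, 8.90, 8.91 and 8.86 with OXA, and 8.89, 9.24 and 9.16 with OXA plus Curcumin. Again no treated array reached down to an untreated one. The differences were 1.08 ± 0.17 (SE, adjusted p = 0.0026) for OXA in HT29 and 1.18 ± 0.17 (adjusted p = 0.00223) in HTOXAR3, and 0.99 ± 0.17 (adjusted p = 0.0048) and 1.38 ± 0.17 (adjusted p = 2.58e-04) for the combination. Adding Curcumin to OXA gave -0.09 (95% interval -0.46 to 0.28) in HT29 and 0.20 (-0.17 to 0.57) in HTOXAR3, neither of them called. The untreated lines differed by -0.14 (-0.50 to 0.23). The untreated HTOXAR3 arrays spread widely (SD 0.47), and the lowest of them was replicate 2, the array with the fewest spots above background. Without it *KLF4* was still called in HTOXAR3, at 0.94 for OXA and 1.14 for the combination. With only the arrays of the compared groups in the fit both HTOXAR3 calls were lost (adjusted p = 0.354 for OXA and 0.180 for the combination), while both HT29 calls held. The difference for OXA in HTOXAR3 was 1.42 within slide 2 and 0.72 within slide 3, and the basal difference was -0.39 within slide 2 and 0.36 within slide 3.

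*KLF2*, best known from quiescent endothelial cells and T cells, was read by a probe printed 10 times on each array, at chr19:16438246-16438305 of GRCh37. The median SD between these spots on the log2 scale was 0.20 before quantile normalization, and the normalized values of an array's spots were averaged. In HT29 it read 7.81, 7.80 and 8.31 untreated, 8.66, 8.35 and 8.42 with OXA, and 8.65, 8.55 and 8.82 with OXA plus Curcumin. In HTOXAR3 it read 7.73, 7.69 and 7.68 untreated, 8.35, 8.25 and 8.37 with OXA, and 8.67, 8.80 and 8.997 with OXA plus Curcumin. In that line the 3 groups did not overlap. Untreated HT29 replicate 3 stood above the other 2 arrays of its group and close to the lowest OXA array. *KLF2* was higher after the combination in HTOXAR3 by 1.12 ± 0.13 (adjusted p = 1.75e-04, a ratio of 2.18) and in HT29 by 0.70 ± 0.13 (adjusted p = 0.0104, a ratio of 1.62). After OXA alone it was higher in HTOXAR3 by 0.62 ± 0.13 (adjusted p = 0.0424), a call that was lost when any 1 of the 6 arrays was left out (adjusted p 0.112 to 0.180), with slide as a block (0.57, adjusted p = 0.0798) and with only these 6 arrays in the fit (adjusted p = 0.0621). The value for OXA in HT29 was 0.51 ± 0.13 (adjusted p = 0.122), and 0.68 (adjusted p = 0.00548) without untreated replicate 3. It passed with Benjamini-Hochberg adjustment (adjusted p = 0.0110) and with dim names left out. The call for the combination in HT29 was lost without untreated replicate 1 (0.62), untreated replicate 2 (0.61) or combination replicate 3 (0.63), and with only these 6 arrays in the fit (adjusted p = 0.417). The difference between the lines in the response to the combination was 0.42 (0.02 to 0.83) and was not called. It was 0.16 within slide 2 and 0.72 within slide 3. For OXA in HT29 the value was 0.56 within slide 2 and 0.10 within slide 3. The basal difference of *KLF2* was -0.27 (-0.56 to 0.01), not called, with -0.09 within slide 2 and -0.64 within slide 3.

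*KLF6*, an early response factor with tumour suppressor activity in several epithelia, was read by 3 probes. The brightest, at chr10:3821387-3821446 of GRCh37, gave 14.27, 14.17 and 14.55 in untreated HT29, 14.82, 14.73 and 14.74 with OXA and 14.86, 14.67 and 14.96 with OXA plus Curcumin. In HTOXAR3 it gave 14.04, 14.00 and 14.14 untreated, 14.22, 14.09 and 14.34 with OXA and 14.18, 14.28 and 14.10 with the combination, and the 3 groups overlapped. The rise after the combination in HT29 was called, at 0.50 ± 0.10 (adjusted p = 0.0193). That call was lost without untreated replicate 1 (0.47), untreated replicate 2 (0.42), combination replicate 1 (0.49) or combination replicate 3 (0.44), with either scaling to the 75th percentile, and with only these 6 arrays in the fit (adjusted p = 0.590). With OXA alone in HT29 the difference was 0.43 ± 0.10 (adjusted p = 0.0623), which reached an adjusted p of 0.0412 with the replicate number as a block and 0.00963 without untreated replicate 3. It also passed with a normexp offset of 16 (adjusted p = 0.0420) or 50 (0.0238), with the mean of all probes (0.0166), with dim names left out (0.0224) and with Benjamini-Hochberg adjustment (0.00563). In HTOXAR3 the differences were 0.16 (-0.06 to 0.38) for OXA and 0.13 (-0.09 to 0.35) for the combination. The difference between the lines was -0.27 (-0.59 to 0.04) in the response to OXA and -0.37 (-0.68 to -0.05) in that to the combination, neither called. The basal difference of this probe was -0.27 (-0.49 to -0.05) and was not called.

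The further *KLF6* probes did not move alike. The second, at chr10:3822976-3823035 and designed on another transcript, rose by 0.77 ± 0.14 with OXA in HT29 (adjusted p = 0.00952), by 0.99 ± 0.14 with the combination in HT29 (adjusted p = 8.87e-04) and by 0.82 ± 0.14 with the combination in HTOXAR3 (adjusted p = 0.00524). In HTOXAR3 its lowest combination array (7.04) lay above its highest untreated array (6.59), where the brightest probe showed overlapping groups. The third probe, at chr10:3827370-3827429, lies farther toward the start of the gene and gave 0.12 ± 0.10, -0.06 ± 0.10 and -0.16 ± 0.10 for the same 3 comparisons, none of them called. All 3 were well above background on 18 arrays, and the adjusted p of the further probes comes from a fit over all 50599 probes.

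**Figure D3:**
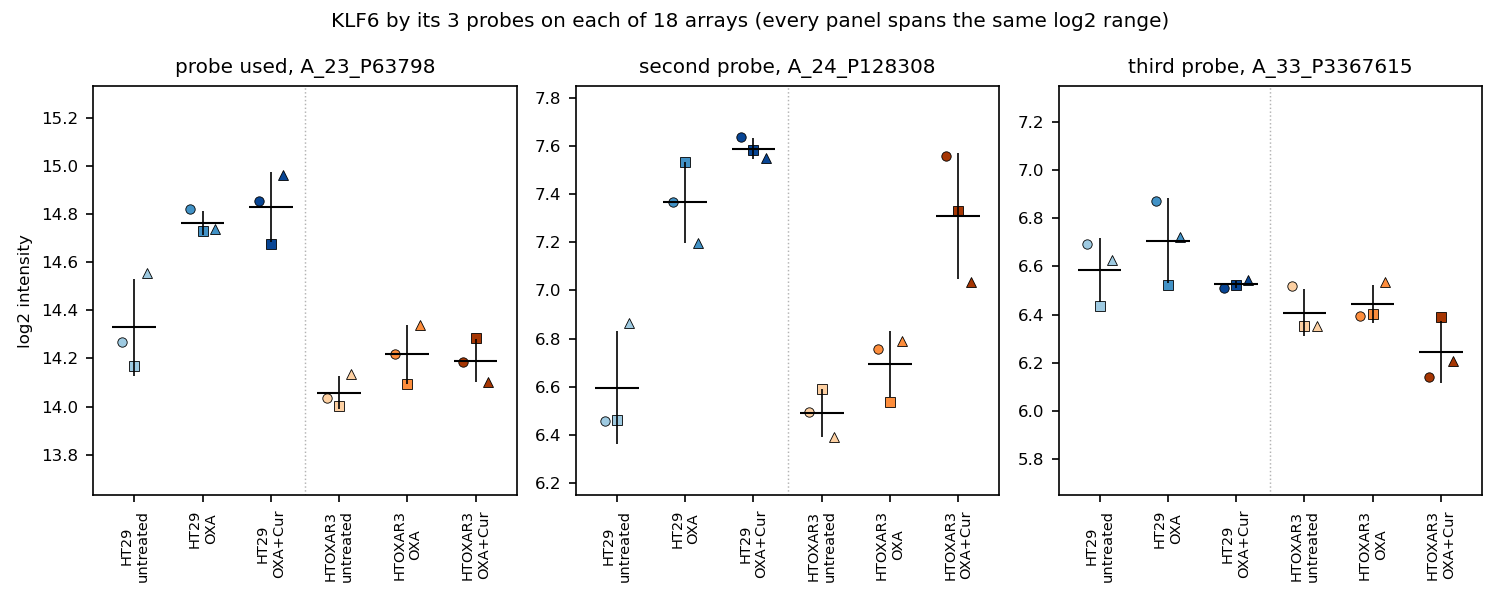
The panels show log2 intensity of *KLF6* by its 3 probes on the 18 arrays, from the brightest probe at the left to the third probe at the right, with points, bars and symbols for the arrays, means ± SD (n = 3) and replicate numbers as in the panels by gene. The second probe has its highest group means with OXA plus Curcumin, 7.59 in HT29 and 7.31 in HTOXAR3, and the third has none above 6.71.

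*KLF5*, the crypt proliferation factor, was called in no comparison. Its 3 values were 13.20, 13.18 and 13.34 in untreated HT29 and 13.16, 13.23 and 13.35 in untreated HTOXAR3, and the 12 treated arrays lay from 13.01 to 13.15, all below the untreated ones. Its probe lies at chr13:73650979-73651038 of GRCh37. The basal difference was 0.01 (95% interval -0.12 to 0.14), and the treated groups were lower by values between -0.13 and -0.21, with intervals reaching at most -0.34. The highest adjusted p among these was 1 and the lowest 0.245.

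*KLF3*, the CtBP-binding repressor, was lower in HTOXAR3 and lower after OXA in HT29. Untreated HT29 read 11.92, 11.90 and 11.91, HT29 with OXA 11.52, 11.57 and 11.35, and HT29 with OXA plus Curcumin 11.58, 11.60 and 11.76. Untreated HTOXAR3 read 11.41, 11.49 and 11.47, with 11.30, 11.31 and 11.30 for OXA and 11.35, 11.22 and 11.20 for the combination. All treated HT29 arrays were below the untreated ones, and every HTOXAR3 array was below every untreated HT29 array. The basal difference was -0.45 ± 0.07 (adjusted p = 0.00234) and the OXA difference in HT29 -0.43 ± 0.07 (adjusted p = 0.00256). Both calls were lost with only the arrays of the compared groups in the fit (adjusted p = 0.0968 and 0.279). The combination gave -0.26 ± 0.07 in HT29 (adjusted p = 0.102), and -0.32 (adjusted p = 0.0432) without combination replicate 3. In HTOXAR3 OXA gave -0.15 (-0.30 to -0.01) and the combination -0.20 (-0.35 to -0.05), neither called. The difference between the lines in the response to OXA was 0.28 (0.07 to 0.49) and was not called. The probe lies at chr4:38702518-38702577 of GRCh37.

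*KLF9*, a SIN3A-binding factor induced by glucocorticoids in many cells, had the widest range of group means among the members, 1.91. Its probe lies at chr9:72999837-72999896 of GRCh37. In HT29 it read 8.32, 8.40 and 8.43 untreated, 8.38, 8.17 and 8.24 with OXA, and 9.18, 9.10 and 8.91 with OXA plus Curcumin. In HTOXAR3 it read 7.15, 7.15 and 7.23 untreated, 7.27, 7.21 and 6.97 with OXA, and 8.75, 8.74 and 8.85 with OXA plus Curcumin. The combination groups stood above all other arrays of their line, and the OXA arrays overlapped the untreated ones in both lines. Untreated HTOXAR3 was lower than untreated HT29 by -1.21 ± 0.09 (adjusted p = 2.45e-06, 2.31-fold). With OXA alone the differences were -0.12 (-0.31 to 0.07) in HT29 and -0.03 (-0.22 to 0.17) in HTOXAR3. Curcumin added to OXA raised *KLF9* by 0.80 ± 0.09 in HT29 (adjusted p = 5.15e-04, a ratio of 1.74) and by 1.63 ± 0.09 in HTOXAR3 (adjusted p = 7.91e-07, a ratio of 3.09). Against untreated cells the combination gave 0.68 ± 0.09 (adjusted p = 4.36e-04) and 1.60 ± 0.09 (adjusted p = 1.78e-07). With only the arrays of the compared groups in the fit, both HT29 calls were lost (adjusted p = 0.344 for Curcumin added and 0.0777 for the combination) and the basal call and both HTOXAR3 calls held. The group means of HT29 and HTOXAR3 were 8.38 and 7.18 untreated, 8.26 and 7.15 with OXA, and 9.06 and 8.78 with OXA plus Curcumin.

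The response of *KLF9* to OXA plus Curcumin was larger in HTOXAR3 by 0.92 ± 0.13 (adjusted p = 0.0126), the 1 interaction called among the members. It was 0.86 within slide 2 and 1.09 within slide 3. The call was lost without untreated HTOXAR3 replicate 1 (0.91, adjusted p = 0.0527), without HTOXAR3 combination replicate 3 (0.89, adjusted p = 0.0523) and when only the 4 groups compared entered the fit (0.92, adjusted p = 0.0505). For Curcumin added to OXA the difference between the lines was 0.83 ± 0.13 (adjusted p = 0.0833) and was not called. It was called with Benjamini-Hochberg adjustment (adjusted p = 0.00752).

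*KLF10* and *KLF11* were first described as early genes induced by TGF-beta, and both repress transcription. *KLF10* read 10.65, 10.92 and 11.06 in untreated HT29, 10.93, 11.19 and 11.36 with OXA, and 11.24, 11.32 and 11.37 with OXA plus Curcumin. In HTOXAR3 it read 10.47, 10.55 and 10.67 untreated, 10.98, 11.07 and 11.06 with OXA, and 11.25, 11.19 and 11.33 with the combination. The HTOXAR3 groups did not overlap, while untreated and OXA arrays overlapped in HT29. The combination in HTOXAR3 was called, at 0.70 ± 0.11 (adjusted p = 0.00298). The values for OXA in HTOXAR3 (0.47 ± 0.11, adjusted p = 0.0892), for the combination in HT29 (0.43 ± 0.11, adjusted p = 0.103) and for OXA in HT29 (0.28 ± 0.11, adjusted p = 1) did not pass. With slide as a block all 3 passed, at 0.44 (adjusted p = 0.00249), 0.33 (adjusted p = 0.0119) and 0.28 (adjusted p = 0.0258), as did the basal difference (-0.41, adjusted p = 0.00403, against -0.32 and an adjusted p of 0.782 without the block). OXA in HTOXAR3 and the combination in HT29 also passed with a normexp offset of 50, with dim names left out, with Benjamini-Hochberg adjustment and with the replicate number as a block. For OXA in HT29 the difference was 0.26 within slide 2 and 0.30 within slide 3. Without untreated HT29 replicate 3, the combination in HT29 passed (0.52, adjusted p = 0.0474).

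*KLF11* went up with OXA and down again with Curcumin in HT29. The basal difference was -0.27 ± 0.08 (adjusted p = 0.241), which passed with Benjamini-Hochberg adjustment (adjusted p = 0.0217). It read 10.33, 10.47 and 10.43 untreated, 10.62, 10.85 and 10.79 with OXA, and 10.21, 10.30 and 10.26 with OXA plus Curcumin, and the 3 groups did not overlap. The 9 HTOXAR3 arrays lay from 10.04 to 10.34 and their groups overlapped. OXA in HT29 gave 0.34 ± 0.08 (adjusted p = 0.0423), a call kept only when OXA replicate 1 was the array left out and lost without any of the other 5 (0.30 to 0.37). It was also lost with the mean of both *KLF11* probes (0.17) and with only these 6 arrays in the fit (adjusted p = 0.720). Curcumin added to OXA in HT29 gave -0.50 ± 0.08 (adjusted p = 0.00694). That call held with each array left out in turn and was lost with the mean of both probes (-0.36, adjusted p = 0.258) and with only these 6 arrays in the fit (adjusted p = 0.667). The same step in HTOXAR3 gave -0.07 (-0.24 to 0.09), and the difference between the lines, 0.43 (0.19 to 0.66), was not called. A further *KLF11* probe was not well above background on any array. The probe used lies at chr2:10194646-10194705 of GRCh37.

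*KLF13*, another SIN3A-binding factor that is known as an activator of the chemokine gene *CCL5* in T cells, was lower in the resistant line, and it fell with OXA plus Curcumin in both lines and with OXA in HT29. Untreated HT29 read 13.10, 13.14 and 13.02, OXA 12.65, 12.59 and 12.70, and OXA plus Curcumin 12.54, 12.47 and 12.67. In HTOXAR3 the values were 12.20, 12.19 and 12.14 untreated, 12.20, 11.93 and 12.09 with OXA, and 11.82, 11.81 and 11.83 with OXA plus Curcumin. Every HTOXAR3 array was below every HT29 array. The basal difference was -0.91 ± 0.07 (adjusted p = 4.78e-06, 1.88-fold lower). In HT29, OXA gave -0.44 ± 0.07 (adjusted p = 0.00332) and the combination -0.52 ± 0.07 (adjusted p = 6.26e-04). Both calls were lost with the mean of both *KLF13* probes (-0.16 and -0.35) and with only the arrays of the compared groups in the fit (adjusted p = 0.185 and 0.127). In HTOXAR3, OXA gave -0.11 (-0.26 to 0.05) and the combination -0.36 ± 0.07 (adjusted p = 0.0176). That last call was lost with any 1 of the 6 arrays left out (adjusted p 0.0504 to 0.0889) with either scaling to the 75th percentile, with only these 6 arrays in the fit, and with the mean of both *KLF13* probes (-0.079). The difference between the lines in the response to OXA was 0.34 (0.12 to 0.55) and was not called. The probe used lies at chr15:31669908-31669967 of GRCh37, and a further, dim *KLF13* probe was well above background on 10 of 18 arrays. That probe went the other way for OXA in HT29 (means of 4.86 untreated and 4.98 with OXA) and for the combination in HTOXAR3 (4.56 and 4.75), with neither difference called.

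Within the slides that held both groups, each called member kept its direction. Slides 2 and 3 held 8 arrays each from all 6 groups, and slide 1 held 2 arrays, both of HT29.

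Some members followed each other over the 18 arrays. The Pearson correlation was 0.894 between *KLF3* and *KLF13*, 0.865 between *KLF2* and *KLF10*, and 0.851 between *KLF2* and *KLF4*. These describe 18 arrays that share their groups and carry no test. By the same measure over 17406 names, the nearest to *KLF9* were *MED10* (0.974), a Mediator subunit, and *AKR1C8* (0.971, printed on the array as *AKR1CL1*), an aldo-keto reductase gene. The nearest to *KLF4* were *SCNM1* (0.958), a splicing factor, and *BCL2L1* (0.954), which encodes the survival protein BCL-XL. The nearest to *KLF13* were *TMBIM4* (0.983) and a probe without a gene name, A_24_P178444 (0.979).

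Genes around the family were described by lists. Their counts stand against the shares of all names called higher and lower, which were 8.33% and 7.62% with OXA in HT29, 5.31% and 4.94% with OXA in HTOXAR3, 9.56% and 9.02% with the combination in HT29, and 8.82% and 8.64% in HTOXAR3. Among names well above background on all arrays, 31%, 20%, 35.6% and 33.4% were called in these 4 comparisons, and the medians of all names lay between -0.03 and 0.01. Of 20 genes reported as targets of Kruppel-like factors, 9 were higher and 2 lower with OXA in HT29, and 10 were higher and 2 lower with OXA in HTOXAR3. With OXA plus Curcumin 9 were higher and 5 lower in HT29, and 12 higher and 4 lower in HTOXAR3, and the list medians were 0.26, 0.29, 0.23 and 0.35 in the same order. *PLAU*, the urokinase gene, had the largest rise among them with OXA, by 2.77 ± 0.06 in HT29 (adjusted p = 1.70e-11) and by 2.00 ± 0.06 in HTOXAR3 (adjusted p = 5.53e-09). It was followed by *EGFR* (1.17 and 1.18) and the laminin gene *LAMA3* (0.88 and 1.17). *CDKN1A*, the cell cycle inhibitor p21, rose most with the combination, by 2.16 ± 0.14 in HT29 (adjusted p = 3.67e-07) and 2.48 ± 0.14 in HTOXAR3 (adjusted p = 1.44e-07). With OXA alone it was not called in HT29 (0.04 ± 0.14, adjusted p = 1) and rose in HTOXAR3 (0.88 ± 0.14, adjusted p = 0.00352), values added outside the rule for named genes. Curcumin added to OXA raised *CDKN1A* by 2.12 in HT29 and 1.60 in HTOXAR3, and lowered *PLAU* by values of -1.24 and -0.99. In the basal comparison 4 of the 20 targets were higher in HTOXAR3, among them *PLAU* (1.44), and 1 was lower (*ENG*, -0.91), against 6.26% and 5.28% of all names. The list was not split by whether the factors raise or lower a gene, so its counts are no measure of their activity.

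Among 15 early response genes, 3 were higher and 0 lower with OXA in HT29, and 1 was higher and 1 lower in HTOXAR3. With the combination 7 were higher and 1 lower in HT29, and 6 higher and 0 lower in HTOXAR3. The list medians were 0.14, 0.13, 0.50 and 0.19. The largest rises in HT29 were those of *ATF3* (1.60 ± 0.17), *DUSP1* (1.19 ± 0.11) and *ZFP36* (1.01 ± 0.12), and in HTOXAR3 those of *DUSP1* (1.06 ± 0.11), *FOSL1* (1.02 ± 0.07) and *ATF3* (0.94 ± 0.17). *ATF3* is a stress-induced bZIP factor, *DUSP1* a phosphatase of MAP kinases and *ZFP36* an mRNA decay factor. At baseline, where 6.26% of all names were higher and 5.28% lower, 1 was higher in HTOXAR3 (*IER3*, 0.93) and 3 were lower, among them *FOSB* (-0.88) and *FOS* (-0.65).

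Of 16 genes of upstream pathways, 3 were higher and 1 lower with OXA in HT29, 3 higher and 0 lower with OXA in HTOXAR3, 3 higher and 3 lower with the combination in HT29, and 2 higher and 3 lower in HTOXAR3, with list medians of -0.12, -0.05, -0.19 and -0.14. *TGFB1*, the ligand of the pathway that induces *KLF10* and *KLF11*, was higher by 0.65 and 0.64 with OXA and by 0.66 and 0.55 with the combination, in HT29 and HTOXAR3. Its receptor gene *TGFBR1* was lower in HT29 by values of -0.66 with OXA and -0.69 with the combination. It was also lower with the combination in HTOXAR3 (-0.48, adjusted p = 0.00233, a value added outside the rule for named genes), and *TGFBR2* was lower in untreated HTOXAR3 (-0.82). In that basal comparison 1 of the 16 upstream genes was higher (*MEF2A*, 0.47) and 2 were lower, against 6.26% and 5.28% of all names. Of 13 cofactors, 2 were higher and 2 lower with OXA in HT29, and 1 was higher and 0 lower in HTOXAR3. With the combination 1 was higher and 2 lower in HT29, and 1 higher and 1 lower in HTOXAR3, and the list medians were 0.12, 0.08, 0.03 and -0.08. *CTBP1*, which encodes a partner of *KLF3*, was lower with OXA in HT29 (-1.21 ± 0.07), and the difference between the lines in that response was called (1.06 ± 0.11, adjusted p = 5.55e-04). With the combination it was lower in both HT29 (-0.79) and HTOXAR3 (-0.55, adjusted p = 5.94e-04). Curcumin added to OXA raised *CTBP1* in HT29 (0.42, adjusted p = 0.0202) and lowered it in HTOXAR3 (-0.41, adjusted p = 0.0153). That difference between the lines was called too (-0.83, adjusted p = 0.0300). Of 8 genes of ubiquitin ligases and a deubiquitinase known to act on these factors, 0 were called with OXA in either line, while 1 was higher with the combination in HT29 and 3 in HTOXAR3, and 0 were lower. The list medians were 0.12, 0.06, 0.24 and 0.15. *FBXO32* rose with the combination, by 1.62 in HT29 and 2.29 in HTOXAR3, and was lower in untreated HTOXAR3 (-0.91). In the basal comparison 1 of these 8 genes was higher and 3 were lower.

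Of the 8 other family genes on the array, 5 were well above background on all 18 arrays and *KLF7* on none. At most 1 of them was called in any comparison. *KLF12*, a CtBP-binding relative of *KLF3*, was that gene each time. It was lower with OXA in HT29 (-0.99 ± 0.10, adjusted p = 3.83e-05), with the combination in HT29 (adjusted p = 2.62e-05) and HTOXAR3 (-0.72 ± 0.10), and with Curcumin added to OXA in HTOXAR3 (-0.52 ± 0.10). Among the 9 SP genes, which encode the nearest relatives of the family, 3 were lower and 1 higher with OXA in HT29, 1 lower and 0 higher with OXA in HTOXAR3, 1 lower and 1 higher with the combination in HT29, and 2 lower and 1 higher in HTOXAR3. *SP6* was lower by values of -0.92 and -1.21 with OXA in HT29 and HTOXAR3, and *SP5* was higher with the combination by 1.04 and 0.79.

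**Figure D4:**
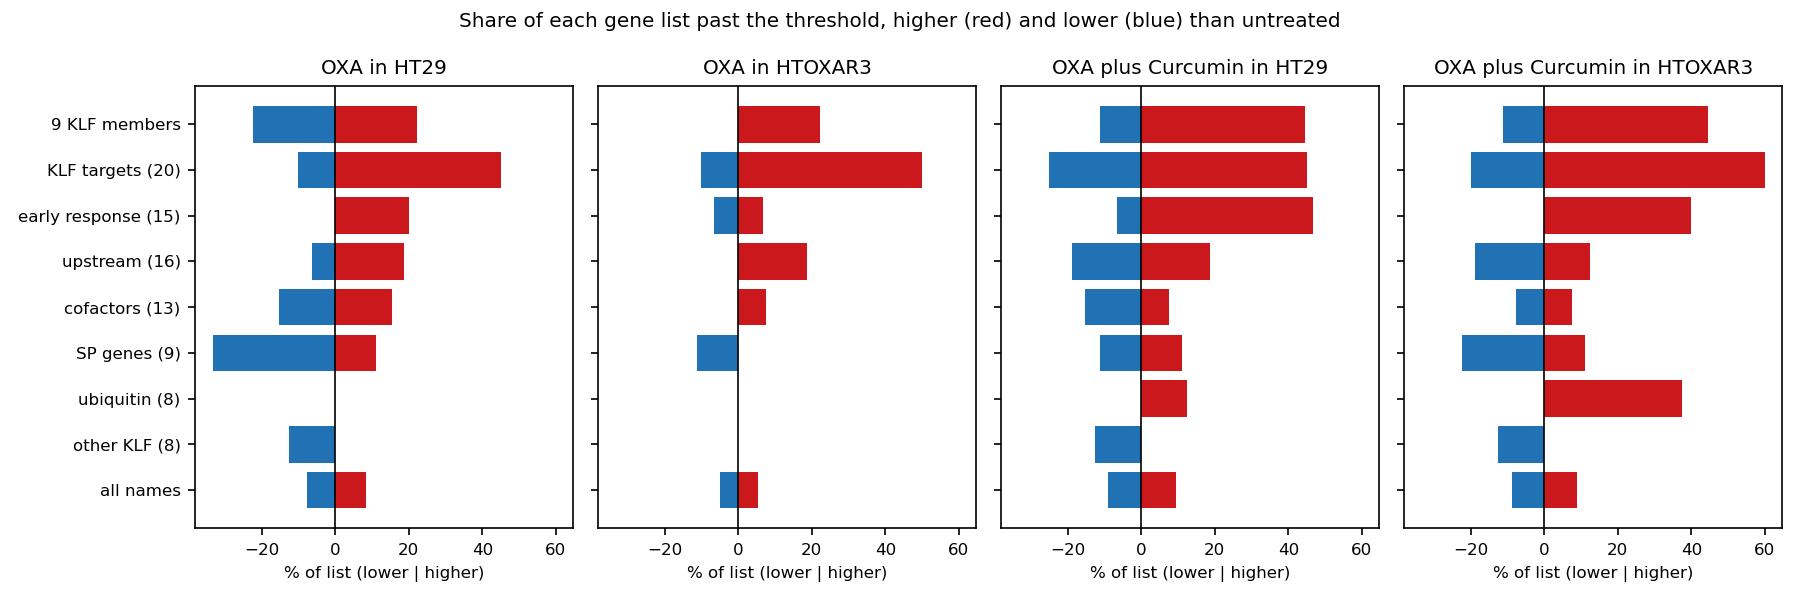
Bars show the share of each gene list that was called higher (red, to the right) or lower (blue, to the left) than untreated cells, in percent, for OXA and OXA plus Curcumin in HT29 and HTOXAR3. The number of genes on the array is in brackets and the lowest bar is the background of all names. The 20 target genes have the longest bar to the right in 3 of the 4 panels, with 12 of 20 higher in HTOXAR3 after the combination. That list was not split by whether the factors raise or lower a gene, so its bars are no measure of their activity. Of the names well above background on all arrays, 31%, 20%, 35.6% and 33.4% were called in either direction, from left to right.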

How the data were processed

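The 18 samples were hybridized to one-colour Agilent human arrays. The authors deposited each array's Feature Extraction output, in which the mean and background intensity of a spot are linear scanner readings without normalization between arrays. A deposited table of log2 values names no probe that could be matched and was not used here. The deposited processed intensity served as an alternative only. Per the study's methods, intensities were corrected with normexp (offset 0, the offset not being given in the sources used here) and quantile normalized. Control spots were left out after normexp, flagged spots were set to missing, spots of a probe were averaged, and the brightest probe stood for a gene name. Probe positions are those of the array annotation on GRCh37, and promoters are from RefSeq.

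limma 3.58.1 (R 4.3.3, with version 1.17.8 of the data.table package) was fitted to log2 values of all 18 arrays with 6 group terms and 10 contrasts. Figures used Python 3.11.15, pandas 2.3.3 and matplotlib 3.10.9. Intensities give no counts, so the 3 arrays per group limit the precision.

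All members are named. From other lists, written from general knowledge, at most 3 called genes per comparison are named, those with the largest difference among names well above background in both groups, and for likeness the 2 nearest names of the 3 members with the widest range of group means. Members and lists were chosen with earlier results of these data known. *MYC* stands in the early response and target lists, *TGFB1* in the upstream and target lists and *EGR1* in the upstream and early response lists. *CDH1* and *KRT19* are both targets and epithelial markers, and *CDX2* is both an upstream gene and an epithelial marker.

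Replicate numbers were checked as pairs by the correlation of deviations from group means. Every pair exceeded 0.1 for OXA in HT29 (0.118 to 0.241) and for Curcumin added in HTOXAR3 (0.108 to 0.194), in which arrays of the same number lay on the same slide. The other comparisons had a pair below it.

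The alternatives tried were an offset of 16 or 50 in normexp, scaling of the processed or the normexp intensity to the 75th percentile, averaging all probes of a gene, each further probe, Benjamini-Hochberg adjustment, a 2-fold minimum, leaving out dim names, fitting only the groups compared, slide or replicate number as a block, values within slides, and leaving out each array.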

Additional observations from a re-analysis of the deposited data

Results flagged for a closer look

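The response of *KLF9* to OXA plus Curcumin differed between the lines. It was larger in HTOXAR3 by 0.92 on the log2 scale (SE 0.13, adjusted p = 0.0126 for the interaction term in limma), with group means from 7.18 to 8.78 in HTOXAR3 and from 8.38 to 9.06 in HT29. All 3 combination arrays of each line lay above the untreated arrays of that line. The dose of OXA was 30 µM in HTOXAR3 and 10 µM in HT29, so line and dose cannot be told apart here. The call was lost with only the 4 groups compared in the fit (adjusted p = 0.0505), with a 2-fold minimum, without untreated HTOXAR3 replicate 1 (adjusted p = 0.0527) and without HTOXAR3 combination replicate 3 (adjusted p = 0.0523).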

How the results depend on the processing

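No member whose difference was called changed direction under another background correction, scaling, adjustment, filter, block, slide or left-out array; the reversals came from further probes on their own. They were *KLF11* with OXA in HT29 (-0.0023, a probe above background on 0 arrays), *KLF13* with OXA in HT29 (0.12) and with the combination in HTOXAR3 (0.20), and *KLF6* with the combination in HT29 (-0.060). Over single members, 360 values stayed on their side of the threshold, 70 no longer passed and 17 moved by more than the replicate spread, all 17 within 1 slide.

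With a 2-fold minimum, calls held for *KLF9* at baseline, *KLF4* for OXA in both lines, *KLF2*, *KLF4* and *KLF9* for the combination in HTOXAR3, and *KLF9* for Curcumin added in HTOXAR3. All other member calls were lost, with none left for the combination or Curcumin added in HT29 or for the difference between the lines after the combination. The share of all names called at that minimum is not given here. With only the groups compared in the fit, the number of members called was 2 at baseline, 1 for OXA in HT29, 0 for OXA in HTOXAR3, 1 for the combination in HT29, 3 in HTOXAR3, 0 for Curcumin added in HT29 and 0 for the line difference after the combination, where fewer arrays enter. Over all names the calls then went from 4177 to 1258 at baseline, from 5774 to 1338 and 3709 to 592 for OXA, from 6724 to 2056 and 6322 to 3013 for the combination, and from 2002 to 16 and 3198 to 223 for Curcumin added, in HT29 and HTOXAR3. The mean of all probes gave 1 for Curcumin added in HT29. Benjamini-Hochberg adjustment added *KLF11* at baseline (4 members), *KLF2* and *KLF6* for OXA in HT29 (6), *KLF10* for OXA in HTOXAR3 (3), *KLF10* for the combination in HT29 (6), *KLF2* for Curcumin added in HTOXAR3 (2) and *KLF9* for the line difference in added Curcumin (1). Over all names this adjustment called more as well, namely 6146, 7944, 5998, 9037, 5125 and 323 in the same order of comparisons. That line difference was also 1 (*KLF9*) with an offset of 50, the processed intensity, and dim names left out.

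Leaving out 1 array in turn gave 3 to 3 members at baseline, 3 to 5 for OXA in HT29, 1 to 1 for OXA in HTOXAR3, 3 to 6 for the combination in HT29, 4 to 4 in HTOXAR3 and 0 to 1 for the line difference after the combination. The replicate block added *KLF6* for OXA in HT29 (adjusted p = 0.0412), and *KLF10* for OXA in HTOXAR3 (0.0119) and the combination in HT29 (0.0119), and lost no member called. Slide as a block added *KLF10* in 4 comparisons and lost *KLF2* for OXA in HTOXAR3.

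Scaling to the 75th percentile moved the median of all names by up to -0.19 (the processed intensity, OXA in HTOXAR3). With the processed intensity the combination in HT29 had 3 members higher and 2 lower, *KLF6* lost and *KLF3* gained, and either scaling lost *KLF13* for the combination in HTOXAR3, which left 4 higher and 0 lower. Dim probes limit what can be read, and the cause of these differences was not tested.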
